A study of Mus musculus with 2 samples.

Results

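The genes described here are those of the B lineage, of MHC class II antigen presentation and of plasma cells, chosen to look for RNA of other cells in sorted T cells. Every probe that was not a control and whose transcript accession named one of the listed genes was taken, whatever its signal. The list holds 36 symbols, of which Faim3 is an older name of Fcmr, so that 35 genes were sought. Of these, 34 were measured, by 45 probes, among 17176 genes named on the arrays. No probe was matched to Cd40, the B cell receptor for the helper ligand CD40L, and it is not analysed here.

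The RNA came from 2 sorted cell populations, CD8+ cytotoxic T cells and CD4+ helper T cells, both described as wild-type C57B6 splenocytes. RNA of each population was measured on 1 Agilent mouse array with a single dye, both on 1 slide, so that nothing measures the variation between mice and no p-value could be given. The labels state neither the age, sex or number of the mice nor the stains and gates of the sort. Processed signals are the scanner software's background-subtracted Cy3 intensities, printed with that software's own error. Differences are log2 values, the CD8+ array minus the CD4+ array, after each array was divided by the 75th percentile of its signals. That percentile was 449.9 on the CD8+ array and 508 on the CD4+ array, so scaling added 0.18 to every log2 difference computed from the printed signals. Cd8a, which encodes the CD8 alpha chain, differed by 6.72 and Cd4 by -2.04, each higher in the cells labelled for it. A difference between the arrays cannot tell fewer cells of a type from less RNA per cell.

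B cells carry an antigen receptor made of immunoglobulin and the signalling chains CD79A and CD79B. The transcription factors EBF1 and PAX5 set up and hold the B lineage, and the coactivator OCA-B (Pou2af1) works with octamer-binding factors. B cells also present antigen on MHC class II, as dendritic cells and macrophages do, under the master regulator CIITA, while mouse T cells largely lack class II of their own. When a B cell becomes an antibody-secreting plasma cell it switches off much of this program and builds up its secretory machinery under BLIMP-1 (Prdm1), IRF4 and XBP1. Spleen is rich in B cells and also holds plasma cells.

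The software called 33 of the 34 genes well above background in CD8+ cells and 34 in CD4+ cells, beside 70.7% and 75% of all 17176 named genes in the same order, and none was saturated. Past 2-fold were 1 gene higher in CD8+ cells, Cd72, and 1 higher in CD4+ cells, Tnfrsf17. Over the 13062 named genes above background on at least 1 array, 2.24% lay past 2-fold with the higher level in CD8+ cells and 4.66% with the higher level in CD4+ cells. A finer rule, chosen after the values were seen, took a difference larger than 2 times the scanner software's error of that difference. For a probe with several spots that error was divided by the square root of their number, although the spots share 1 hybridisation. By this rule 10 of the 34 were higher in CD8+ cells, beside 9.45% of all named genes, and 6 were higher in CD4+ cells, beside 12.8%. The median of the 34 differences was 0.11, against 0.00 over the 13062 genes. The roles pointed different ways. The 10 receptor and surface genes had a median of 0.49 and the 3 transcription factors one of 0.54, while the 6 class II genes had -0.14 and the 7 plasma cell genes -0.53.

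**Figure D1:**
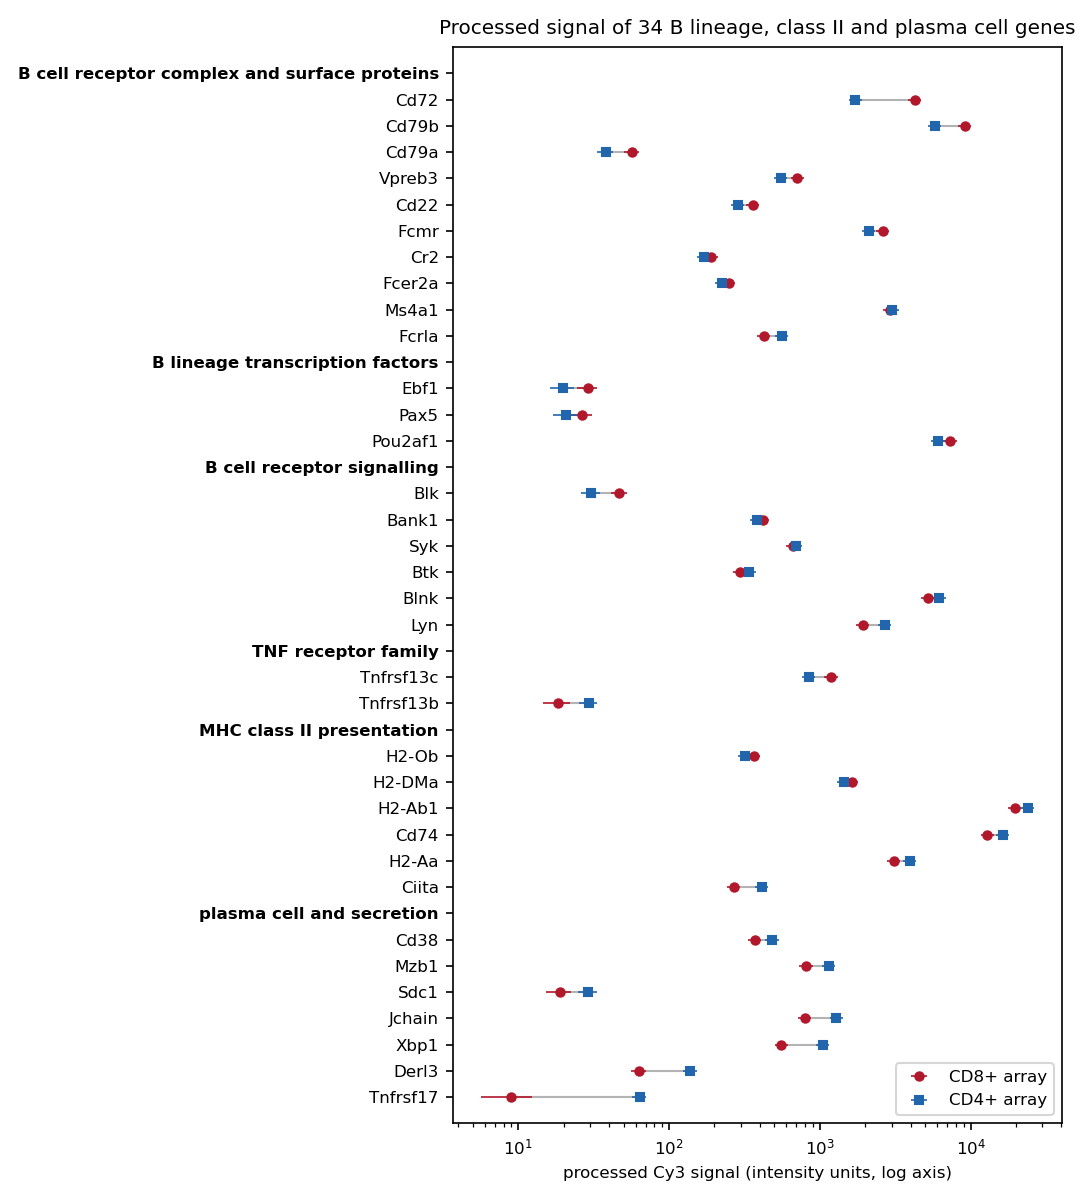
Processed Cy3 signal (log axis, intensity units) of the chosen probe of each of the 34 genes, ordered by role, on the CD8+ array (circles) and the CD4+ array (squares), with the scanner software's error as bars. Signals are as printed in the text, before scaling. Cd72 lies at 4259.5 in CD8+ cells and 1724 in CD4+ cells, and Tnfrsf17 at 8.99 and 63.7. Signals of different genes come from different probes and are not comparable as levels.

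Among the receptor complex and surface genes, 9 of 10 were higher in CD8+ cells, beside 50.6% of all named genes, and 6 of them by more than 2 errors. The 9 include Cr2, whose probes differed in sign. The count was 8 with normexp or the series values, where Ms4a1 turned negative. It was also 8 with the mean over probes, where Cr2 did. Cd72, an inhibitory coreceptor of the B cell receptor, had a signal of 4259.5 ± 426 in CD8+ cells, against 1724 ± 172 in CD4+ cells. The difference was 1.48 ± 0.20, or 2.79-fold. A second Cd72 probe read 2805 in CD8+ cells and 1143 in CD4+ cells, a difference of 1.47. Both probes therefore gave the same size of difference, which ranged from 1.34 to 1.62 over the alternative settings.

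Cd79b, the beta signalling chain of the receptor, had 9159 ± 916 in CD8+ cells, against 5789 ± 579 in CD4+ cells (difference 0.84 ± 0.20, 1.79-fold). Cd79a, its partner chain, was measured by a dim probe at 56.8 ± 6.43 in CD8+ cells and 37.9 ± 4.71 in CD4+ cells (0.76 ± 0.24). The 2 chains, which pair in the cell, differed in the same direction. With normexp and the series values Cd79a differed by 0.45 and 0.47, and Cd79b by 0.78 in both. Vpreb3, whose protein binds immunoglobulin heavy chains in developing B cells, had 711 in CD8+ cells and 549.9 in CD4+ cells by its brighter probe (0.55 ± 0.20), and 0.41 by the other. Cd22, a sialic acid-binding inhibitory coreceptor, had 360.3 in CD8+ cells and 287 in CD4+ cells (0.51 ± 0.20). Fcmr, the Fc receptor for IgM, had 2608 in CD8+ cells and 2112 in CD4+ cells (0.48 ± 0.20), and it is also known to be expressed by T cells.

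The remaining surface genes lay within 2 errors. Ms4a1, which encodes CD20, had 2915 ± 292 in CD8+ cells and 3035 ± 304 in CD4+ cells, a difference of 0.12 ± 0.20 that became -0.12 on the authors' series values. Fcer2a (CD23), the low-affinity IgE receptor of follicular B cells, had 250.01 in CD8+ cells and 225 in CD4+ cells (0.33 ± 0.21). Cr2, the complement receptor CD21, cannot be given a direction. One of its probes read 191 in CD8+ cells and 172 in CD4+ cells (0.33), and the other read 80.4 and 115 in the same order (-0.35). Cr2 was the only 1 of 9 genes with several detected probes whose probes differed in sign, and over all 3972 genes of that kind 31.1% did. Fcrla, an intracellular Fc receptor-like protein of B cells, was the 1 surface gene lower in CD8+ cells, with 425 there, against 559 in CD4+ cells (-0.22 ± 0.20).

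Promoters of the RefSeq gene table were available for 26 of the 35 genes (windows of 250 bases before to 50 after the gene start, build GRCm38.p6), and 160 bases before the start are printed for 5 of them. The promoter of Cd72, at chr4:43454627-43454786 (minus strand), is shown because that gene differed most in the CD8+ direction, and that of Vpreb3, at chr10:75948140-75948299 (plus strand), because it holds the octamer through which the B lineage coactivator OCA-B acts. Capitals mark the letters GAGGAAGT (of the type bound by PU.1, here on the opposite strand) in Cd72 and the octamer ATTTGCAT in Vpreb3, and all motifs were sought on both strands.
Cd72: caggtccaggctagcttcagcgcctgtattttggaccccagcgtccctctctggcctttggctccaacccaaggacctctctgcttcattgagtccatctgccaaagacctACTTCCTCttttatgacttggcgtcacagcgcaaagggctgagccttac
Vpreb3: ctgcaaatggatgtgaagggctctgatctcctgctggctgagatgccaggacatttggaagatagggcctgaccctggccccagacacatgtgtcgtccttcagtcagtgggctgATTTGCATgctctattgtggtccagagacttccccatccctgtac
The PU.1-type letters began 49 bases before the Cd72 start and were held by 3.20% of all 32851 windows. The octamer began 45 bases before the Vpreb3 start, was also held by the Blnk window and was in 1.74% of all windows. The palindrome of EBF1, TCCC and GGGA with 2 bases between them, was found in the Cd22 window and in 0.904% of all. The motifs were picked after the windows had been read, a match is no more than a description, and none overlapped another.

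The 3 transcription factor genes were all higher in CD8+ cells, beside 50.6% of all named genes, and 2 of them, without Pax5, by more than 2 errors. Pou2af1 had 7339 ± 734 in CD8+ cells, against 6116 ± 612 in CD4+ cells (0.44 ± 0.20). Ebf1 had 28.9 ± 4.38 in CD8+ cells and 19.9 ± 3.64 in CD4+ cells (0.72 ± 0.34), and Pax5 had 26.6 ± 4.22 in CD8+ cells and 20.6 ± 3.78 in CD4+ cells (0.54 ± 0.35). The last 2 were close to the lowest signal called well above background, which was 14.7 on the CD8+ array and 13.5 on the CD4+ array. In all, 7 of the 34 genes had a signal under 100 on both arrays (Cd79a, Ebf1, Pax5, Blk, Tnfrsf13b, Sdc1 and Tnfrsf17). With normexp background correction Ebf1 differed by 0.32 and Pax5 by 0.29, and with the series values by 0.33 and 0.23.

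Genes of B cell receptor signalling showed no common direction, with 3 of 6 higher in CD8+ cells, beside 50.6% of all named genes. Their median was 0.04. Blk, a Src-family kinase of B cells, had 46.7 ± 5.68 in CD8+ cells and 30.4 ± 4.42 in CD4+ cells (0.80 ± 0.27), and was the only member of the group beyond 2 errors; it differed by 0.47 with normexp and with the series values. Bank1, a B cell scaffold protein, had 419 in CD8+ cells and 383 in CD4+ cells (0.31 by its brighter probe and 0.08 by the other). Syk, the kinase recruited to the receptor's signalling chains, had 659.7 in CD8+ cells and 695 in CD4+ cells (0.10). Blnk, the adaptor that links Syk to its downstream enzymes, had 5243 in CD8+ cells and 6215 in CD4+ cells (-0.07). Lyn, a Src-family kinase shared with myeloid cells, had 1940.2 in CD8+ cells and 2711 in CD4+ cells (-0.31), while its second probe, with 307 and 347 in the same order, showed no difference after scaling. The signs of the small differences of Blnk and Btk turned positive when arrays were scaled to their medians.

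Btk, the kinase whose loss blocks B cell development in humans, was printed as 10 spots on each array and so allowed a direct view of technical spread. Its signal ran from 233 through a median of 299 to 327 in CD8+ cells, against 304 through 335 to 384 in CD4+ cells. After scaling the spots of the 2 arrays overlapped, and the difference was -0.02, within the SD over spots of 0.14 on the CD8+ array and 0.10 on the CD4+ array. Of the TNF receptor family genes, Tnfrsf13c, the BAFF receptor on which mature B cells depend, had 1192 ± 119 in CD8+ cells and 846 ± 84.6 in CD4+ cells (0.67 ± 0.20). Tnfrsf13b, the related receptor TACI, had 18.3 ± 3.65 in CD8+ cells and 29.5 ± 4.01 in CD4+ cells (-0.51 ± 0.35).

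**Figure D2:**
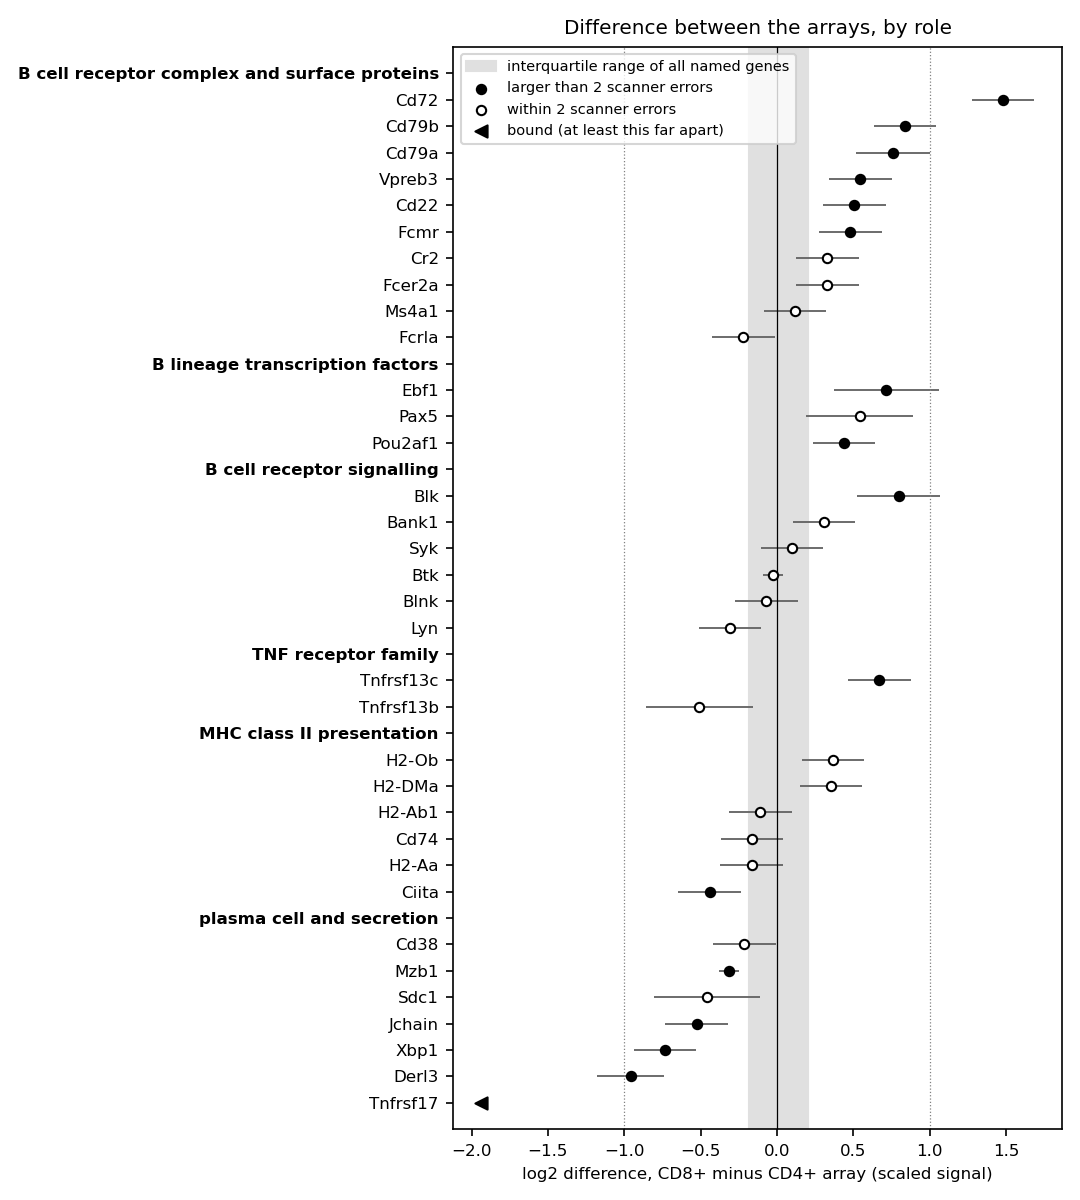
Log2 difference of each of the 34 genes, CD8+ minus CD4+ array, by role. Bars show the scanner software's error of the difference, divided by the square root of the number of spots. Filled points lie beyond 2 errors, open points within them, and the triangle of Tnfrsf17 is a bound; the grey band is the interquartile range of all genes well above background on both arrays (-0.18 to 0.20) and dotted lines mark 2-fold. Surface and transcription factor genes lie mostly right of 0, and the 7 plasma cell genes all lie left of it.

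The MHC class II genes differed little. Of 6 genes, 4 were lower in CD8+ cells, beside 47.7% of all named genes, and the median of -0.14 became 0.01 when arrays were scaled to their medians. Cd74, the invariant chain that guides class II through the cell, had 12947 ± 1295 in CD8+ cells and 16375 ± 1638 in CD4+ cells (-0.16 ± 0.20). H2-Aa, the class II alpha chain, had 3113 in CD8+ cells and 3949 in CD4+ cells (-0.17), and its second probe gave -0.34. H2-Ab1, the beta chain, was lower in CD8+ cells by each of 3 probes, with differences of -0.11, -0.08 and -0.22. The probe of H2-Ab1 with 10 spots read 5153 ± 280.2 in CD8+ cells and 6152 ± 289.6 in CD4+ cells (SD, n = 10 spots). Before scaling its highest spot in CD8+ cells, 5483, lay under the lowest in CD4+ cells, 5836, but after scaling the spots overlapped.

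Ciita had 269 ± 27.1 in CD8+ cells, against 413 ± 41.4 in CD4+ cells (-0.44 ± 0.20), the only 1 of the 6 beyond 2 errors. H2-DMa, the alpha chain of the molecule that exchanges peptides on class II, had 1624 in CD8+ cells and 1436 in CD4+ cells (0.35 ± 0.20), and H2-Ob, a chain of its inhibitor H2-O, which is found mainly in B cells, had 365 in CD8+ cells and 320.0 in CD4+ cells (0.37 ± 0.20). Among class II genes outside the list, 2 of 9 were higher in CD8+ cells, beside 50.6% of all named genes, with a median of -0.17. H2-Oa, the partner chain of H2-Ob, had 3657 in CD8+ cells and 2305 in CD4+ cells (0.84). The lysosomal thiol reductase gene Ifi30 had 1168 in CD8+ cells and 2134 in CD4+ cells (-0.69), and H2-DMb2, a beta chain that pairs with H2-DMa, differed by -0.42 ± 0.21.

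The class II promoters are printed because H2-Aa and H2-Ob stood on different sides of 0 while both hold the letters of a Y box. Both differences lay within 2 scanner errors. The promoters lie at chr17:34287824-34287983 (minus strand) and chr17:34238745-34238904 (plus strand). Capitals mark the Y box GATTGG and, upstream of it in H2-Ob, a core of the X box, AGCAAC.
H2-Aa: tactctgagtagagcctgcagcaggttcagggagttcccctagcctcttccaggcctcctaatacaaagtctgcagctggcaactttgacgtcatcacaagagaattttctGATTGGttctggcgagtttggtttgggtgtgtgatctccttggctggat
H2-Ob: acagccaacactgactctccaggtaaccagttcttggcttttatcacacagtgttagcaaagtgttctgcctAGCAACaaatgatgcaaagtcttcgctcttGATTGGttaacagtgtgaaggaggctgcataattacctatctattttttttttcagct
The Y box began 49 bases before the H2-Aa start and 58 before that of H2-Ob, and the X box core began 88 bases before the H2-Ob start. GATTGG was held by 7 of the 26 genes with a window and by 16.1% of all windows, and the X box core by 4 genes and by 14.8% of windows. Class II genes among them were H2-Aa, H2-DMa and H2-Ob for GATTGG and H2-Ob alone for the X box core. Only the exact letters were sought, so a variant such as ggcaac, upstream of the Y box in the printed H2-Aa sequence, was not counted. The others were Derl3, Fcer2a, Fcrla and Sdc1 for GATTGG and Blnk, Fcrla and Pou2af1 for the X box core.

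All 7 plasma cell and secretion genes were lower in CD8+ cells, beside 47.7% of all named genes, and 5 of them by more than 2 errors. The 5 include Mzb1, at -0.32 with an error of 0.06 from 10 spots. Lyn, at -0.31 with an error of 0.20 from 1 spot, lay within 2 errors. The median of the 7 was -0.53, and it ranged from -0.57 to -0.38 over the alternative settings. Sdc1 turned positive with normexp and with the series values, which left 6 of 7 lower in CD8+ cells. Cells other than plasma cells also use several of these genes, and activated T cells are known to express Cd38 and Xbp1.

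Tnfrsf17, which encodes the plasma cell survival receptor BCMA, was the only gene of the list not well above background on an array. Its signal was 8.99 ± 3.34 in CD8+ cells, against 63.7 ± 7.11 in CD4+ cells, a measured difference of -2.65. With the CD8+ level set to the lowest signal called well above background, it was at least 3.83-fold higher in CD4+ cells. With normexp its log2 difference was -0.57 and with the series values -0.83, both under 2-fold. Derl3, a component of the machinery that removes misfolded proteins from the endoplasmic reticulum, had 62.9 ± 7.11 in CD8+ cells and 138 ± 14.2 in CD4+ cells (-0.96 ± 0.22, 1.94-fold). With normexp its difference was -0.45 and with the series values -0.57, so that Xbp1, at -0.83 and -0.85, then differed more.

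Xbp1, the transcription factor of the secretory program, had 557 ± 55.8 in CD8+ cells, against 1047 ± 105 in CD4+ cells (-0.73 ± 0.20, 1.66-fold). Jchain, which joins IgM and IgA into polymers, had 792 in CD8+ cells and 1290.0 in CD4+ cells (-0.53 ± 0.20), and its second probe gave -0.61. Immunoglobulin genes themselves are not analysed here, because no probe was named as one. Cd38, an ectoenzyme of the cell surface, had 369 in CD8+ cells and 484 in CD4+ cells (-0.21), and -0.45 by its dimmer probe. Sdc1 (CD138), the classical surface marker of plasma cells, had 18.8 ± 3.66 in CD8+ cells and 29.2 ± 4.23 in CD4+ cells (-0.46 ± 0.35), near the detection limit of both.

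Mzb1, a chaperone of immunoglobulin assembly in marginal zone B cells and plasma cells, was again printed as 10 spots. They ran from 764 through a median of 811 to 889 in CD8+ cells, against 1054 through 1155 to 1204 in CD4+ cells. After scaling none of the 10 spots of the CD8+ array reached the lowest of the CD4+ array, and the difference was -0.32 (SD over spots 0.06 on each array). Of the 154 probes with 10 spots above background on both arrays, 31.2% were apart in this direction and 13.6% in the other. The spots share 1 hybridisation per array, so their spread covers printing and scanning and not the preparation of the RNA.

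**Figure D3:**
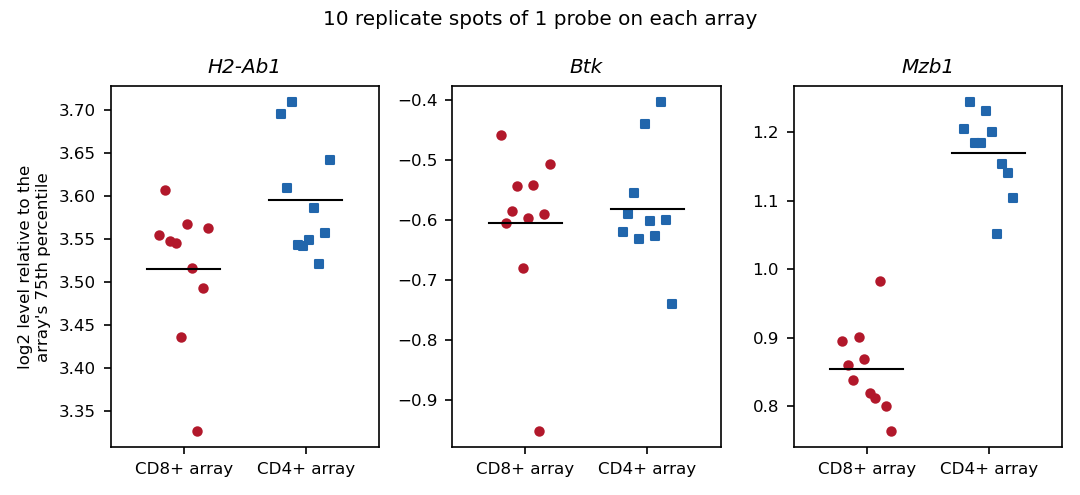
Log2 level relative to the array's 75th percentile of each of 10 spots of 1 probe for H2-Ab1, Btk and Mzb1, on the CD8+ array (circles, left) and the CD4+ array (squares, right), with lines at the means; each panel has its own axis. The spots overlap for H2-Ab1 and Btk and lie apart for Mzb1, whose highest spot in CD8+ cells was 0.98 and whose lowest in CD4+ cells was 1.05.

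The Derl3 promoter, at chr10:75893238-75893397 (plus strand), is shown because that gene had the largest difference, in the chosen setting, among the listed plasma cell genes detected on both arrays, and its window holds the endoplasmic reticulum stress element, CCAAT and CCACG with 9 bases between them, to which XBP1 can bind. Capitals mark the element, on the opposite strand.
Derl3: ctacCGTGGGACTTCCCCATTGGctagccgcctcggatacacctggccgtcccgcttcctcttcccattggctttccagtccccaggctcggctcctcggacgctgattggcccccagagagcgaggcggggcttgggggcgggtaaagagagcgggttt
The element began 156 bases before the start and was held by this promoter alone among the 26 genes with a window, and by 0.119% of all windows.

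Genes of the same programs outside the list did not all lie in the same direction as those on it. Among 25 further B cell genes above background, 9 were higher in CD8+ cells and 15 lower, beside 50.6% and 47.7% of all named genes. Their median of -0.09 was opposite in sign to that of the surface genes. Median scaling moved it to 0.01. Scd1, a fatty acid desaturase, differed by 0.89. The only gene of that list at least 2-fold apart was Cd200, a surface glycoprotein that T cells also express, with 328 in CD8+ cells and 1105 in CD4+ cells (-1.58). Several of the other genes, among them Cd37, Ikzf3, Btla and Cxcr5, are known in T cells too.

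Among 17 further plasma cell genes, 6 were higher in CD8+ cells and 11 lower, beside 50.6% and 47.7% of all named genes. Their median was -0.06, which median scaling turned to 0.08. Prdm1 had 45.7 in CD8+ cells and 251.7 in CD4+ cells (-2.28), and Irf4 had 35.2 in CD8+ cells and 123 in CD4+ cells (-1.63). Both factors also act in effector and regulatory T cells. Ell2, an elongation factor of antibody-secreting cells, differed by -0.71. Chaperone and folding genes of the secretory pathway on the list differed among themselves, with -0.66 for Dnajb9, -0.66 for Fkbp11, -0.06 for Pdia4, 0.00 for Hsp90b1 and 0.32 for Txndc5, which were chosen as examples after their values were seen.

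Markers of other cells moved as well. Of 12 dendritic cell markers above background, 8 were lower in CD8+ cells, beside 47.7% of all named genes, and the median was -0.84. Of the 6 listed class II genes 4 were lower in CD8+ cells too, only Ciita by more than 2 errors. H2-DMa (0.35) and H2-Ob (0.37) were higher in CD8+ cells. Cd209a had 19.0 in CD8+ cells and 198.6 in CD4+ cells (-3.21), and Siglech, of plasmacytoid dendritic cells, 43.9 in CD8+ cells and 312 in CD4+ cells (-2.65). Cd207 (langerin) went the other way, with 1132 in CD8+ cells and 107 in CD4+ cells (3.58). So did Ccr9, with 3880 in CD8+ cells and 698 in CD4+ cells (2.65, named after its values were seen), and Ly6c2 (1.76). T cells express some genes of these lists, and the source of these signals was not tested. In all, 3 of the 12 markers were at least 2-fold higher in CD8+ cells and 5 in CD4+ cells, beside 2.24% and 4.66% of all named genes. Summed over the list, the scaled signal was 143 times the 75th percentile in CD8+ cells and 81.3 times in CD4+ cells, a sum carried mostly by Ly6c2, which CD8+ T cells also express, and Bst2, both named after their values were seen.

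Monocyte and macrophage markers had 3 of 14 higher in CD8+ cells, beside 50.6% of all named genes, and a median of -0.14. Their summed signals were 116 in CD8+ cells and 129 in CD4+ cells, in the same units. Among these markers Lyz2 differed by -2.17 and Adgre1 by -0.47. NK cell markers had a median of -0.69 over 8 genes, with Klrg1 at -4.21, Klrb1c at -2.34 and Eomes at 3.33. Of these Klrg1 and Eomes are also T cell genes. The summed signals of the NK list were 12.3 in CD8+ cells and 23.6 in CD4+ cells. Both sums were carried mostly by Tyrobp, named after its values were seen, with processed signals of 3997 in CD8+ cells and 10166 in CD4+ cells. Platelet markers had a median of 0.59 over 7, the sign of the B cell surface genes' median. Of the 7, 4 were higher in CD8+ cells, beside 50.6% of all named genes. Some of their probes were dim, with Ppbp at 97.9 in CD8+ cells and 73.2 in CD4+ cells. Itga2b, above background on the CD8+ array alone, had 31.3 there and 15.3 on the CD4+ array (1.21). Both were named after their values were seen. Pf4 differed by 0.76, Gp9 by 0.61 and Itgb3 by -3.30. Their summed signals were 2.66 in CD8+ cells and 17.8 in CD4+ cells. Both sums were carried mostly by Itgb3, with processed signals of 784 in CD8+ cells and 8745 in CD4+ cells. Neutrophil markers (median 0.07 over 6) and erythroid markers (-0.16 over 4) lay near 0, with Mpo at -0.33, S100a9 at 0.27, Camp at 0.18, Hba-a1 at -0.30, Klf1 at -0.20 and Slc4a1 at -0.12. T cell markers had a median of 0.08 over 14, with Cd3e at 0.50, Lck at 0.31 and Cd5 at -0.84. Among the genes not well above background on either array were Elane of the neutrophil list, Epb42 of the erythroid, Gp5 of the platelet, Klre1 of the NK and Cd180 of the further B cell genes. The part of any of these cells in the class II, surface or plasma cell differences was not tested.

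**Figure D4:**
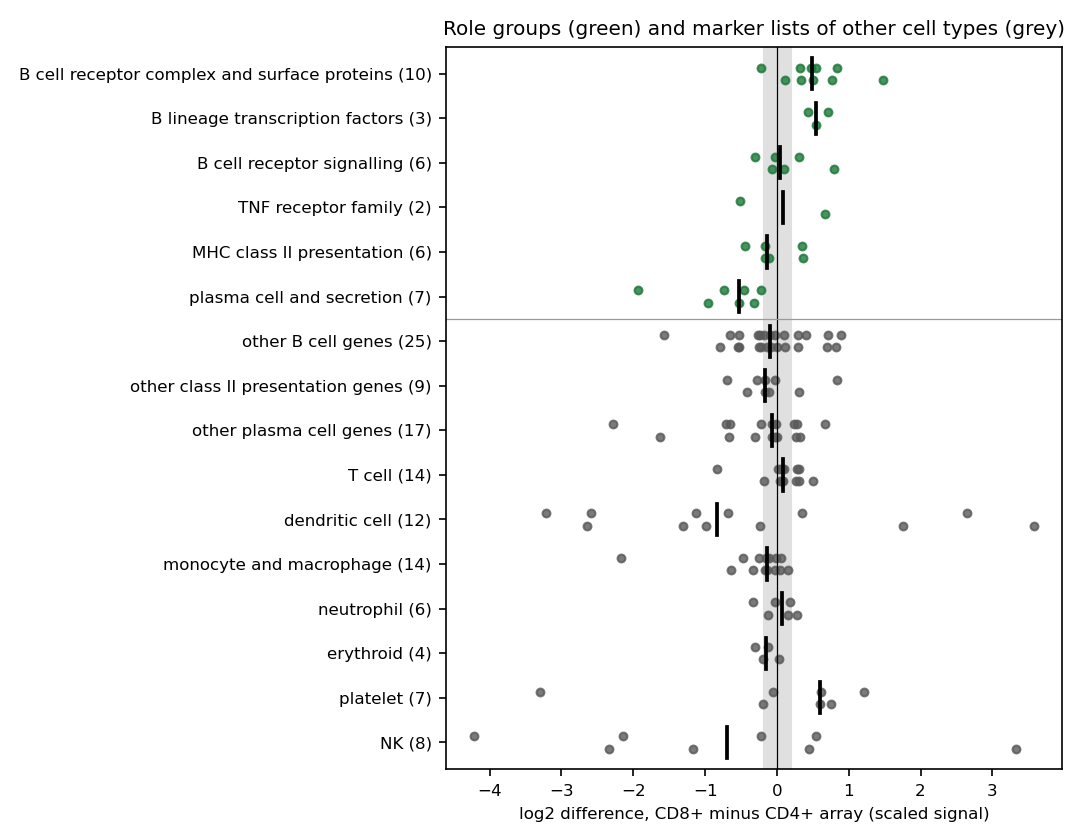
Log2 difference (CD8+ minus CD4+ array) of each gene above background on at least 1 array, for the 6 role groups (green) and 10 lists of further genes and other cell types' markers (grey), with the number of genes in brackets and a black line at each median; genes of 1 array stand at their bound and the grey band is the interquartile range of all genes. The receptor and surface genes centre at 0.49 and the plasma cell genes at -0.53, while the further B cell and plasma cell lists centre at -0.09 and -0.06.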

How the data were processed

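The deposited scanner files give a linear intensity per spot, made with Feature Extraction 10.1.1.1 per the file headers (version 9.1 per the submitters' processing notes). The authors' deposited series values equal the spots' median intensity at 45018 of 45018 spots on each array, so they are neither background-subtracted nor centred (medians over non-control spots 76.5 for the CD8+ array and 83.5 for the CD4+ array). The scanner software's flags for background, saturation and outliers were used as deposited.

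Control spots and outlier spots (92 on the CD8+ array and 99 on the CD4+ array) were left out, log2 signals were scaled to the 75th percentile, and spots of a probe were averaged. Probes were named by unversioned transcript accession in a RefSeq table (GRCm38.p6), used for names and promoters alone because the headers name another build. A gene took its probe of highest mean level, those well above background on both arrays first. The immunoglobulin list could not be formed, and H2-Eb1 and H2-Ea had no named probe. All members were named, and of each other list the 3 largest differences among genes above background on both arrays, with Prdm1, Irf4, Cd3e, Cd4 and Cd8a; some genes that this rule takes in are not reported here. The members and lists were chosen with earlier results of these data known. With 1 array per cell type no test was made. The computation was checked on simulated data. Alternatives were normexp (offset 50, on median signals, as no mean signal is in the files), median or detected-probe scaling, quantile normalization, series values, no filter on dim probes, probes of at least 200 alone, the mean over probes, saturated probes left out, outlier spots kept and a 4-fold threshold. Python 3.11.15, numpy 2.4.6, pandas 2.3.3, matplotlib 3.10.9, R 4.3.3 and limma 3.58.1 were used.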

Additional observations from a re-analysis of the deposited data

How the results depend on the processing

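With median scaling the all-gene median shifted by 0.14, and no gene of the 34 changed side relative to that median; taken from 0, H2-Ab1, Blnk and Btk changed sign. So did Btk with quantile normalization, Cr2 with the mean over probes, Ms4a1 and Sdc1 with normexp and the series values, and Tnfrsf13b with normexp. With normexp and with the series values 9 of the 34 differences moved by more than 0.24, the SD between probes of a gene. Over all genes on both arrays, the share of those at least 2-fold apart that were higher in CD8+ cells was 33.6% in the chosen setting, 46.6% after median scaling and 45.0% when brighter probes alone were kept. The count of the 34 at least 2-fold apart with CD4+ cells higher was 1, but 2 with the percentile over detected probes, where Derl3 passed at -1.002, and 0 with normexp, the series values, brighter probes alone or a 4-fold threshold. The count higher in CD8+ cells was 1, but 0 at 4-fold. By the rule of 2 scanner errors, added after the data were seen, the counts were 10 in CD8+ cells and 6 in CD4+ cells, or 6 and 4 with normexp and 15 and 4 with median scaling. The error was that of the processed signals in every setting, so the normexp counts set it beside differences of another signal. Brighter probes alone kept 25 genes, so that 0 were below background on the CD8+ array against 1 otherwise, and 1 TNF receptor gene with 0.67, against a median of 0.08. The medians of the surface genes (0.39 to 0.64), the transcription factors (0.32 to 0.73) and the plasma cell genes (-0.57 to -0.38) kept their signs in every alternative. With brighter probes alone the transcription factor value was that of Pou2af1 alone (0.44). The plasma cell median (-0.42) was then taken without Sdc1, Tnfrsf17 and Derl3. The class II median ran from -0.20 to 0.01 and the signalling median from -0.02 to 0.18. No paired analysis was possible because each cell type has 1 array. The number of arrays limits the precision, and the cause of these changes was not tested.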
